A study of Mus musculus with 6 samples.

Results

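The genes described here are 10 members of the Wnt pathway chosen by name and role: the ligands Wnt4, Wnt5b and Wnt7b, the receptors Fzd1 and Fzd6, the co-receptors Lrp5 and Lrp6, the R-spondin receptor Lgr4, the nuclear factor Tcf7l2 and the feedback gene Axin2. They are 10 of the 47643 gene identifiers counted in each library, of which 21717 had a count in any tumor. A filter on low counts kept 12088 genes, among them 9 of the 10. Axin2 was not kept, because too few libraries held enough of its reads.

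The data are 3′ RNA-seq counts from sorted epithelial tumor cells of 6 breast tumors of MMTV-PyMT mice (genotype FVB/N-Tg (MMTV-PyVT)634Mul/J). In this transgenic model the mouse mammary tumor virus promoter drives the polyoma middle T antigen in the mammary epithelium, and tumors form spontaneously. The mice carried the transgene and received B20-4.1.1, an antibody that blocks VEGF-A, at 5 mg/kg by intraperitoneal injection 2 times per week for 6 weeks, starting at 7 weeks of age. Cells were sorted as CD45-EPCAM+, and the methods of the study add a gate against CD31 and PDGFRα. The study asked how tumor cells respond to the hypoxia that antiangiogenic treatment brings. No untreated tumor was among the samples analysed here, and the labels do not give the hypoxia class of a tumor. Values are therefore given per tumor, numbered 1 to 6, and no groups were compared.

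Counts on genes per library lay between 2509482 (tumor 2) and 5893246 (tumor 1), so a level of 3 counts, used as the floor of detection, stands for 0.509 to 1.20 CPM (counts scaled by the library total). The library of tumor 1 stood apart, with a median correlation across genes of 0.788 with the others, against 0.905 to 0.939 for the other 5. The labels give 6 separate samples, and no pair of libraries matched within counting noise (chi-square per degree of freedom 19.1 to 120). The sorted fraction carried the epithelial markers of its gate, with Epcam at 611 to 972 CPM and a sum over 7 luminal markers of 3957 to 4874 CPM. The sum over 5 endothelial markers was 1.59 to 4.12 CPM, with Cldn5 at 0 in every tumor, and that over 6 fibroblast markers 15.1 to 25.9 CPM. Immune and erythroid markers differed more between tumors. The sum over 9 immune markers was 68.2 to 298 CPM and that over 4 erythroid markers 5.08 to 778 CPM, both highest in tumor 3. Cd14 alone gave 31.2 to 146 CPM of the immune sum and was highest in tumor 5. Ptprc, Cd68, Csf1r, C1qa, Lyz2, Cd3e and Itgam were highest in tumor 3. In bulk RNA of this kind, fewer cells that express a gene and less RNA of it per cell cannot be told apart.

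Wnt proteins are secreted lipid-modified ligands that bind Frizzled receptors together with the co-receptors Lrp5 or Lrp6. In the canonical branch this stops the destruction complex, built on Axin and Apc, from degrading β-catenin, which then enters the nucleus and switches on genes through TCF/LEF factors such as Tcf7l2. R-spondins acting on Lgr receptors raise the amount of Frizzled at the cell surface by removing the ubiquitin ligases Rnf43 and Znrf3, and target genes such as Axin2, Nkd1, Rnf43 and Znrf3 feed back to limit the signal. In the mammary gland the pathway is known for its part in ductal growth and in the maintenance of basal progenitors, and it was through mammary tumors of mice that the first Wnt gene was found.

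Promoter windows were available for 6 of the 10 genes, and 3 of them are shown because the results turn on their genes. They are Axin2, whose level set 1 tumor apart, Wnt5b, the ligand with the highest level in TPM, and Lgr4, the other gene with a tumor apart. Each window is the RefSeq sequence on build GRCm38.p6 from 250 bases before to 50 bases after a transcript start, read on the strand of the gene. The windows are those of Axin2 at chr11:108920099-108920398 (plus strand), Wnt5b at chr6:119449337-119449636 (minus strand, 1 of 3 starts listed for this gene) and Lgr4 at chr2:109917397-109917696 (plus strand). Capitals mark the TCF/LEF motif CTTTGAT, searched on both strands, in Axin2 and Wnt5b, and the hypoxia response core ACGTG or GCGTG, searched on both strands, in Lgr4.
Axin2: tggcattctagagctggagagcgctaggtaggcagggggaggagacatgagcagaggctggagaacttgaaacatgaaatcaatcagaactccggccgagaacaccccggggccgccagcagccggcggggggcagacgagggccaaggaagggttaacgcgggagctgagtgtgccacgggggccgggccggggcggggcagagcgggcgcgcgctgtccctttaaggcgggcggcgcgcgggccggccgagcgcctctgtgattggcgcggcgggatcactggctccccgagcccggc
Wnt5b: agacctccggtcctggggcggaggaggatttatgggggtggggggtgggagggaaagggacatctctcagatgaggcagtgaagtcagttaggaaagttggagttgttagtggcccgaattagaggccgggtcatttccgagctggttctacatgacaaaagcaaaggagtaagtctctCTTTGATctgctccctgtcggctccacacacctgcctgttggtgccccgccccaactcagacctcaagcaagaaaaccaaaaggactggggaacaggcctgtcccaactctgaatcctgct
Lgr4: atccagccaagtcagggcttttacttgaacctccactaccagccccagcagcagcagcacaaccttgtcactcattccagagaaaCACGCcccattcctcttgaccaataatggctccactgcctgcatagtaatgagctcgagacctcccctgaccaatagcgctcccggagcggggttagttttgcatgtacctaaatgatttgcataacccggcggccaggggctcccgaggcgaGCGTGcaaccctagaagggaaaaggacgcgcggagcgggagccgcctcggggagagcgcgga
The TCF/LEF motif was present in the Wnt5b window shown, 1 of the 9 windows of the 6 genes, and in 3.73% of all 32851 windows of this length. Of the 3 starts of Wnt5b, the one shown is the only one with this motif. The Axin2 window had no match and a GC content of 70%. The hypoxia core was present in 5 of the 9 windows, 2 times in that of Lgr4, and in 43.8% of all windows. The Wnt5b windows not shown held it 3 times and 1 time, and the Fzd1 window had no match. These matches describe letters in a window and say nothing of binding.

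The 10 genes covered a wide range of levels. In TPM, a scale that also divides by exon length, the order by median was Tcf7l2 (82.8), Wnt5b (39.0), Lrp6 (19.96), Lgr4 (15.8), Wnt7b (9.81), Fzd6 (6.07), Lrp5 (3.97), Fzd1 (2.20), Wnt4 (1.41) and Axin2 (0.134). Neighbours were taken to differ where the order held in all 6 tumors and the mean log2 ratio within a tumor was larger than its SD. By this measure Tcf7l2 lay above Wnt5b (1.28 ± 0.66 on the log2 scale, SD, n = 6), Wnt5b above Lrp6 (0.86 ± 0.49) and Wnt7b above Fzd6 (0.88 ± 0.41). The other 6 neighbouring pairs did not differ beyond their spread. With the length of the longest transcript in place of all exons, Wnt5b lay above Lrp6 in 5 of 6 tumors (0.47 ± 0.49) and no longer differed from it by this measure. A 3′ library reads 1 site per transcript, so levels were also ordered by CPM, without division by length. Lrp6 then lay above Wnt5b in 6 of 6 tumors (1.51 ± 0.49), beyond the spread by the same measure and the reverse of the order in TPM. Which of these 2 genes has the higher level thus depends on the division by length. Lrp5 moved above Fzd6, in 3 of 6 tumors, and the rest of the order was as before.

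**Figure D1:**
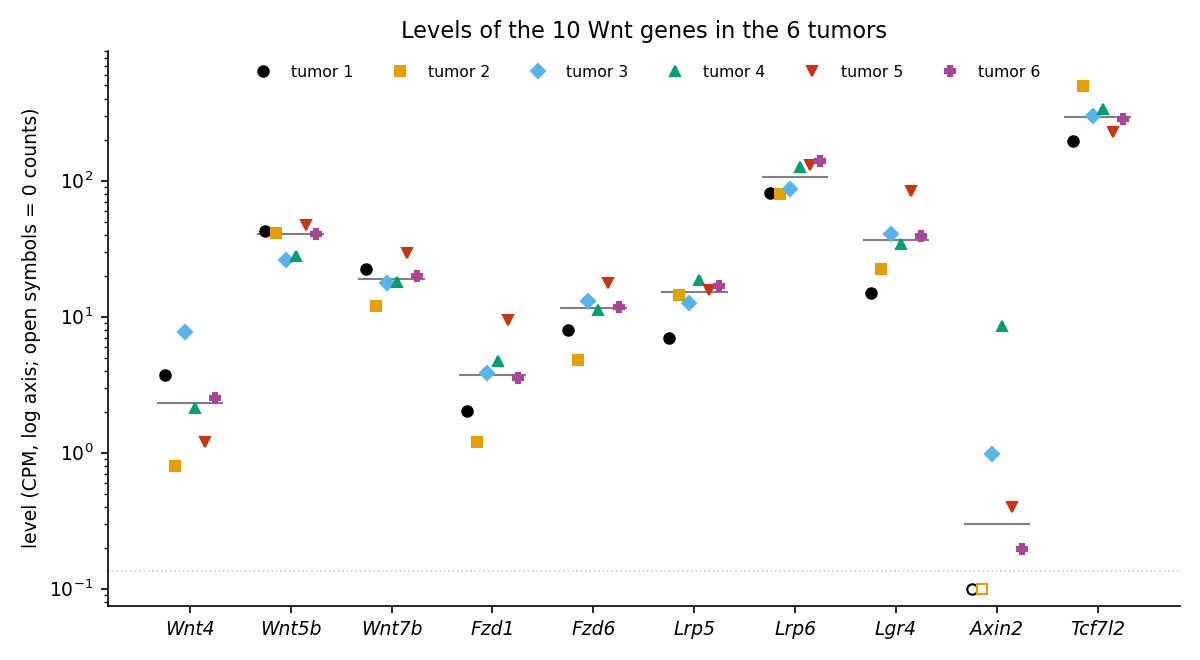
Level of the 10 genes in CPM (vertical axis, log scale) in each of the 6 tumors (symbols), with the median of the 6 as a grey bar and open symbols for a count of 0. Axin2 in tumor 4, at 8.51 CPM, lay far above its other 5 values, and Lgr4, Fzd1, Fzd6, Wnt7b and Wnt5b were highest in tumor 5.

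Among the ligands, Wnt5b was the most abundant in every tumor by TPM. Wnt5b (chr6:119432531-119544347, minus strand, GENCODE M21), a ligand known mainly for β-catenin-independent signaling, was at 42.6, 41.0, 26.2, 27.9, 47.1 and 40.2 CPM in tumors 1 to 6. Tumors 3 and 4 were the lowest and tumor 5 the highest, with a range of 1.80-fold, the second smallest among the 10 genes. Wnt7b (chr15:85535437-85582473, minus strand), a ligand of the mammary epithelium that can act through β-catenin, was at 22.6, 12.0, 17.7, 18.1, 29.2 and 19.7 CPM. Tumor 5 was again the highest and tumor 2 the lowest. Wnt5b exceeded Wnt7b by 2.73- to 6.34-fold in TPM, in all 6 tumors, with a median of 3.23-fold. In CPM, without division by length, the lead was smaller, 1.48- to 3.43-fold with a median of 1.75-fold, and also held in all 6 tumors.

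Wnt4 (chr4:137277489-137299726, plus strand), which carries the progesterone signal to neighbouring mammary cells, was close to the floor. It had 22, 2, 32, 10, 6 and 13 counts in tumors 1 to 6, or 3.73, 0.797, 7.76, 2.13, 1.20 and 2.54 CPM. Tumor 3 was the highest, and its exact 95% Poisson interval of 5.31 to 11.0 CPM did not overlap that of any other tumor except tumor 1 (2.34 to 5.65 CPM). Tumor 3 was also the tumor with the highest immune and erythroid marker sums, and their part in the level of Wnt4 was not tested. Near its 3′ end, over 300 bases, 14.3% of stretches of 50 bases occur also in transcripts of other genes, so its level is less certain than those of the other members, which had none. Such intervals cover counting error only.

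Over the whole family of 19 ligands, 3 had at least 3 counts in every tumor (Wnt5a, Wnt5b and Wnt7b), 5 did in some tumors and 11 in none. Wnt5b made up 45.3 to 67.5% of the summed ligand TPM, with a median of 59.7%. Wnt5a, the close relative of Wnt5b, made up 10.8 to 27.2%, Wnt7b 10.6 to 20.4% and Wnt4 0.829 to 8.50%. Together Wnt5a, Wnt5b and Wnt7b held 86.5 to 97.9%. The lead of Wnt5b over Wnt5a depended on the division by length. The ratio was 1.75 to 5.92 in TPM, above 1 in 6 of 6 tumors, and 0.593 to 2.01 in CPM, above 1 in 4 of 6. In tumors 3 and 4 Wnt5a was above Wnt5b in CPM, at 42.0 and 47.0 against 26.2 and 27.9. The shares above rest on the same division by length and are not given in CPM. Wnt1, Wnt3 and Wnt3a, the classical canonical ligands, had between 0 and 1 count per tumor, so a level below the floor of each library could not be seen. Of the genes needed to release a ligand, Porcn, which attaches the lipid, was at 7.81 to 18.4 CPM and Wls, the carrier to the surface, at 88.6 to 126 CPM.

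**Figure D2:**
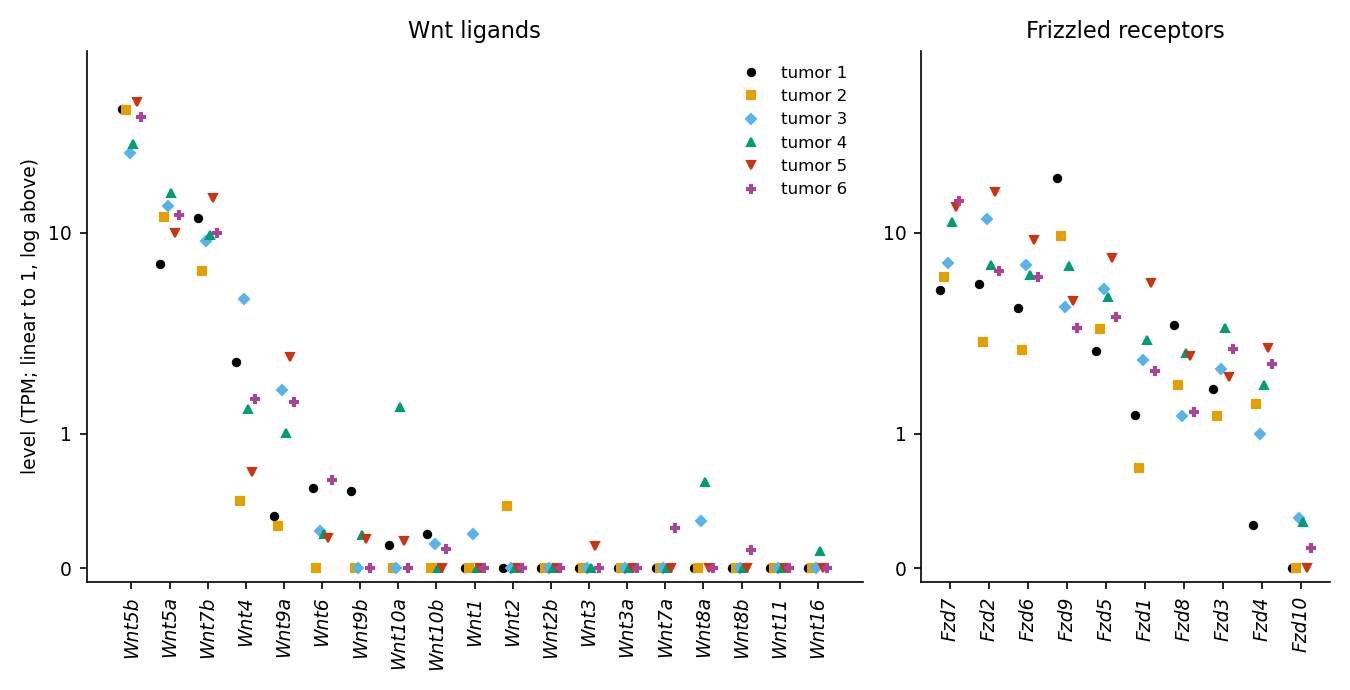
TPM of the 19 Wnt ligands (left) and the 10 Frizzled receptors (right) in each tumor (symbols), on a vertical axis that is linear up to 1 TPM and logarithmic above, with genes ordered by median. Wnt5b, Wnt5a and Wnt7b stood above the other ligands, while 9 of the 10 Frizzled genes were present in every tumor.

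The receptors were more evenly represented than the ligands, with 9 of 10 Frizzled genes at 3 counts or more in every tumor and Fzd10 in none. Fzd1 (chr5:4753839-4758035, minus strand), a receptor that can signal through β-catenin, had 12, 3, 16, 22, 47 and 18 counts, or 2.04, 1.20, 3.88, 4.68, 9.38 and 3.51 CPM in tumors 1 to 6. Tumor 5 was highest, with a 95% Poisson interval of 6.90 to 12.5 CPM that overlapped only the upper end of tumor 4 (2.93 to 7.08 CPM). Fzd6 (chr15:39006034-39038188, plus strand), known for its part in planar cell polarity, was at 7.98, 4.78, 13.1, 11.3, 17.8 and 11.7 CPM. Both receptors had their lowest level in tumor 2 and their highest in tumor 5. The ratio of Fzd6 to Fzd1 in TPM was 3.41, 3.48, 2.94, 2.10, 1.65 and 2.90, above 1 in every tumor and lowest in tumors 4 and 5. The most abundant Frizzled gene by median TPM was Fzd7 (9.14), ahead of Fzd2 (6.65), Fzd6 (6.07), Fzd9 (5.71), Fzd5 (4.30) and Fzd1 (2.20). Tumor 5 held the highest level of 5 of the 9 detected Frizzled genes, against 19.3% of all genes.

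Lrp6 lay above Lrp5, the other co-receptor for canonical signals, in every tumor. Lrp6 (chr6:134446476-134566965, minus strand) was at 80.4, 80.1, 87.3, 125, 130 and 140 CPM in tumors 1 to 6. Tumors 4, 5 and 6 were thus all above tumors 1, 2 and 3, and the range was 1.75-fold, close to the 1.80-fold of Wnt5b, whose coefficient of variation was smaller (22.6% against 25.6%). Lrp5 (chr19:3584828-3686564, minus strand) was at 6.96, 14.3, 12.6, 18.7, 15.8 and 16.8 CPM. Tumor 1 was lowest, and tumor 4 was highest in CPM but tumor 6 after scaling by trimmed means (TMM). Lrp6 exceeded Lrp5 in all 6 tumors, by 3.98- to 8.23-fold in TPM with a median of 5.40, and the largest ratio, in tumor 1, came with the lowest Lrp5 level. Without tumor 1 the largest ratio was 5.95. Among the receptors of β-catenin-independent signaling, Ror2 had no count, Ror1 was at 4.75 to 12.3 CPM and Ryk at 33.3 to 126 CPM.

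**Figure D3:**
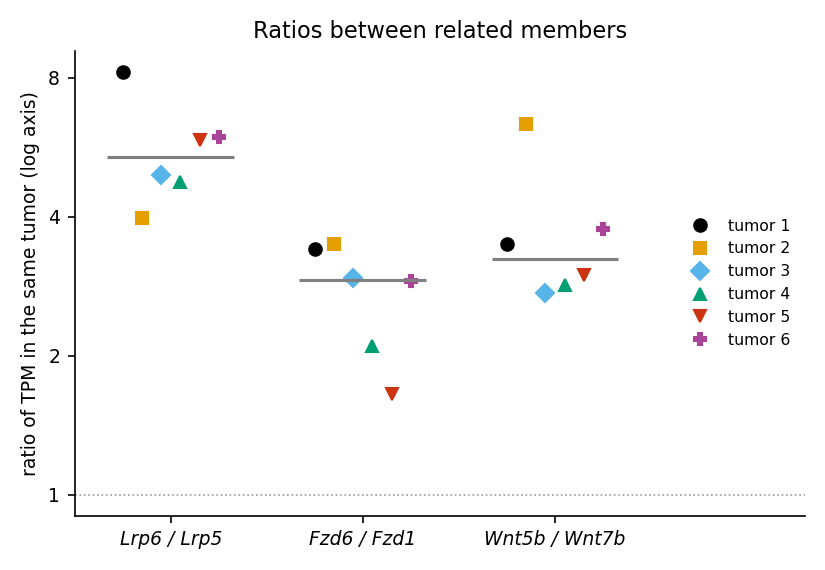
Ratio of TPM within the same tumor (vertical axis, log scale) for 3 pairs of related genes, with 1 symbol per tumor and the median as a grey bar. Every ratio shown lay above 1, with medians of 5.40 for Lrp6 over Lrp5, 2.92 for Fzd6 over Fzd1 and 3.23 for Wnt5b over Wnt7b. In CPM, not shown, these medians were 7.58, 3.35 and 1.75.

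Lgr4, the receptor of R-spondins, was highest in tumor 5 and lowest in tumor 1. Lgr4 (chr2:109917647-110014257, plus strand) had 88, 56, 167, 161, 418 and 199 counts in tumors 1 to 6, or 14.9, 22.3, 40.5, 34.2, 83.5 and 38.9 CPM. Tumor 5 was more than 40 CPM above every other tumor and tumors 3, 4 and 6 lay close together. To describe a tumor that stands apart, the gap to the nearest other tumor was divided by the range of the 6 and read against the 95% critical value of Dixon for 6 values. Lgr4 had a gap of 0.627, just past it. The gap was 0.581 after scaling by TMM or by DESeq2 size factors and 0.426 on log2(CPM + 1), all below the critical value. Among the 12088 genes kept, 16.3% passed it.

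The other genes of the R-spondin arm differed from Lgr4 in which tumor was high. Lgr6 was at 365, 138, 123, 161, 94.6 and 138 CPM, highest in tumor 1 and lowest in tumor 5. The ratio of Lgr6 to Lgr4 in TPM consequently ran from 0.974 in tumor 5 to 21.0 in tumor 1. In CPM that ratio was 1.13 to 24.4, above 1 in all 6 tumors. Lgr5, a stem cell marker in several epithelia, had 48, 4, 7, 9, 4 and 34 counts. Of the ligands of these receptors, Rspo2 and Rspo4 had no count in any tumor, Rspo1 had at most 5 counts and Rspo3 at most 3. Rnf43 and Znrf3, the ubiquitin ligases that the arm controls, were at 31.3 to 54.8 CPM and 5.60 to 12.4 CPM.

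Tcf7l2 was the most abundant of the 10 genes in every tumor by TPM. Tcf7l2 (chr19:55741820-55933654, plus strand), the TCF/LEF factor that binds β-catenin at target genes, was at 197, 495, 300.2, 337, 229 and 282 CPM in tumors 1 to 6. Tumor 2 stood above the rest (gap of 0.530, below that critical value), and tumors 1 and 5 were lowest. By median TPM it was followed among the TCF/LEF genes by Tcf7l1 (29.0) and Tcf7 (2.01), while Lef1 had at most 1 count in a tumor. Tcf7, with 60 counts in tumor 5, had no more than 15 in any other tumor. Of 10 nuclear partners detected, 5 were highest in tumor 2 (Tcf7l2, Bcl9, Bcl9l, Tle3 and Ctnnbip1), against 16.2% of all genes. The library of tumor 2 was also the shallowest, and had the largest share of reads outside genes (41.4%); their part in these levels was not tested. Ctnnb1, which encodes β-catenin itself, was at 767 to 1184 CPM.

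Axin2 had at most 4 counts in 5 of the 6 tumors and 40 in tumor 4. Axin2 (chr11:108920349-108950783, plus strand), a scaffold of the destruction complex and the best known target gene of canonical Wnt signaling, had 0, 0, 4, 40, 2 and 1 counts in tumors 1 to 6. In CPM, tumor 4 was at 8.51 (95% Poisson interval 6.08 to 11.6), tumor 3 at 0.970 (0.264 to 2.48), tumor 5 at 0.399 and tumor 6 at 0.195. The counts of 0 lay under the floor of 0.509 CPM in tumor 1 and 1.20 CPM in tumor 2, with upper Poisson limits of 0.626 and 1.47 CPM. The interval of tumor 4 overlapped that of no other tumor, and its gap of 0.886 was past the critical value on every scale tried. Exons of Axin2 share 209 bases with the opposite-strand gene Gm11670, those of Wnt7b 324 bases with AU022754 and those of Fzd6 152 bases with Gm26704, and whether counting used the strand is not given in the sources used here.

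Of the other feedback genes, Nkd1 and Tnfrsf19 also had their highest level in tumor 4, each with an interval that overlapped that of another tumor. Nkd1, an inhibitor of Dishevelled and a target of the pathway, had 0, 3, 0, 19, 4 and 2 counts in tumors 1 to 6, and its interval in tumor 4 (2.43 to 6.31 CPM) overlapped that of tumor 2 (0.247 to 3.49 CPM) but no other. Sp5, a transcription factor induced by β-catenin, had 3 counts in tumor 4, 1 in tumor 5 and 0 elsewhere, a difference not detectable at this depth. Tnfrsf19, a receptor also induced by the pathway, was at 2.71, 16.3, 22.6, 24.5, 15.4 and 12.3 CPM, with tumor 4 only slightly above tumor 3. Of the 13 feedback and target genes with 3 or more counts in a tumor, 4 were highest in tumor 4, against 12.5% of all genes, and 4 in tumor 5. The 4 of tumor 4 include Axin2 itself and Sp5, which passed the minimum of 3 counts through tumor 4 alone, so nothing is read from this count. Tumor 4 was not the highest for the rest: Rnf43 was at 47.4 CPM there against 54.8 CPM in tumor 3, Nkd2 had 142 counts against 473 in tumor 1, and Myc was at 3.83 CPM against 11.0 CPM in tumor 5.

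**Figure D4:**
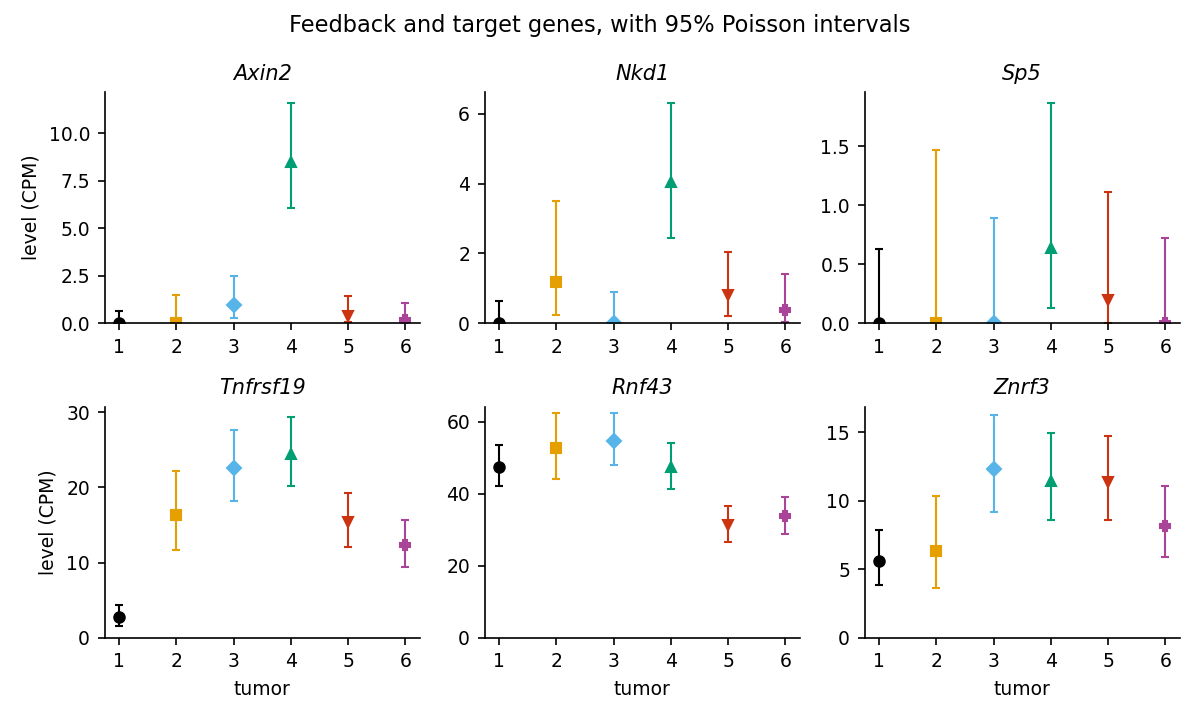
CPM of Axin2 and 5 other feedback or target genes in tumors 1 to 6, with exact 95% Poisson intervals as bars; each panel has its own linear vertical axis. Axin2 and Nkd1 had their highest level in tumor 4, whereas Rnf43 and Znrf3 varied less and were highest in tumor 3. With Sp5 and Tnfrsf19, the panels hold all 4 of the 13 detected genes that were highest in tumor 4. Rnf43 and Znrf3 are the only others shown, so the panels do not represent the list.

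Ligands and antagonists in tumor 4 were compared by their levels. Wnt10a had 6 counts in tumor 4 and at most 1 elsewhere, and Kremen2 5 counts against at most 1. Both thus reached 3 counts in tumor 4 alone. Sostdc1, a secreted antagonist, had 21 counts against at most 9. The antagonist list holds secreted antagonists and also Kremen1 and Kremen2, which encode membrane receptors. Of 8 ligands and 8 genes of the antagonist list detected in a tumor, 2 each were highest in tumor 4, against 12.5% of all genes. In tumor 5 the numbers were 3 and 4, against 19.3%, and nothing is read from them. Wnt5a (47.0 CPM) and the carrier Wls (126 CPM) were also highest in tumor 4, whereas Wnt4, Wnt5b and Wnt7b, at 2.13, 27.9 and 18.1 CPM, were not. Tumor 4 also had the highest level of the basal markers Trp63 (16.0 CPM) and Krt5 (17.4 CPM), while its sum over 8 basal markers, 248 CPM, lay inside the range of 172 to 536 CPM. Its sum over fibroblast markers was 17.2 CPM and over immune markers 99.5 CPM, both inside their ranges. Of the immune sum, Cd14 alone gave 84.0 CPM, and no other gene of that list was above the 7.87 CPM of Cd68. The part of these cells in the level of Axin2 was not tested.

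Across the 10 genes, tumor 5 held the highest CPM of 5 (Wnt5b, Wnt7b, Fzd1, Fzd6 and Lgr4). Tumor 4 held that of 2 (Axin2 and Lrp5), tumors 2, 3 and 6 that of 1 each (Tcf7l2, Wnt4 and Lrp6), and tumor 1 that of none. Among the 16580 genes with 3 or more counts in a tumor, the share highest in tumors 1 to 6 was 29.9%, 16.2%, 16.8%, 12.5%, 19.3% and 5.3%. The 5 genes were the same under TMM, DESeq2 size factors and a total without the 10 most abundant genes, and without tumor 1. Tumor 5 also had the highest sum over the basal markers, 536 CPM against 172 to 354 CPM in the others, with Krt14 at 359 CPM and Krt17 at 127 CPM. Other genes of the list were higher elsewhere: Krt5 was at 10.2 CPM in tumor 5 against 17.4 CPM in tumor 4, Trp63 at 4.59 against 16.0 CPM in tumor 4, Mylk at 32.1 against 65.7 CPM in tumor 1 and Oxtr at 2.00 against 3.71 CPM in tumor 6. The smooth muscle genes of that list, Acta2 and Myh11, had at most 5 and 2 counts in any tumor. The part of basal cells in the levels of tumor 5 was not tested.

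For its level, Lgr4 had the largest spread between tumors of the genes kept from the set. The highest CPM was at least 2-fold the lowest for 7 of the 9 genes kept, against 71.4% of the 12088. The largest ranges were those of Wnt4 (9.74-fold), Fzd1 (7.85-fold) and Lgr4 (5.59-fold), the first 2 at low counts. The biological coefficient of variation, the spread left after counting noise is removed, was 0.465 for Lgr4, above 93.6% of the 1000 genes nearest in level. It was above 80.4% of such genes for Wnt4 (0.585), 75.8% for Fzd1 (0.541) and 38.3 to 62% for the other 6. All 10 genes varied more than counting noise alone, with a chi-square per degree of freedom from 6.21 (Wnt7b) to 130 (Tcf7l2).

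The levels were then set against a 3-gene hypoxia score, the mean TPM of Vegfa, Slc2a1 and Car9, which was 48.5, 37.2, 51.4, 76.6, 94.4 and 47.3 in tumors 1 to 6. The score was lowest in tumor 2 and highest in tumors 4 and 5. Of its genes, Slc2a1 had the highest TPM and was lowest in tumor 2 (69.1 TPM). Vegfa and Car9 were lowest in tumor 1 (21.7 and 9.81 TPM). As a geometric mean the score was lowest in tumor 1, at 29.0 against 29.7 in tumor 2, so which of these tumors is lowest depends on how the genes are averaged. A slope, the change in log2 level per doubling of the score, was fitted for every gene with edgeR's quasi-likelihood test. The adjusted p was under 0.05 for 0 of 12088 genes (0%), and 512 genes (4.24%) had an unadjusted p under 0.05. DESeq2, the other tool run, called 18 genes. None of the 9 genes kept was called by edgeR, nor any of the 8 to which DESeq2 gave an adjusted p, Wnt4 being the one without.

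Fzd1 and Lgr4 had the largest positive slopes of the genes kept from the set. The slope of Fzd1 was 1.67 (SE 0.53, edgeR quasi-likelihood test, unadjusted p = 0.0114, adjusted p = 0.954) and that of Lgr4 1.14 (SE 0.45, unadjusted p = 0.0300, adjusted p = 0.954). These were the 2 of 9 genes with an unadjusted p under 0.05, beside 4.24% of all genes, and neither passed the correction. Both receptors were highest in tumor 5, where the score was highest. The slope of Fzd1 stayed between 1.43 and 1.94 when any 1 tumor was left out. Its unadjusted p in the edgeR quasi-likelihood test then ranged from 0.00796 to 0.173. With the score as a geometric mean the slope was 1.26. The slope of Lgr4 went from 1.14 to 0.45 without tumor 5. The adjusted p over all alternatives ranged from 0.451 to 1 for Fzd1 and from 0.454 to 1 for Lgr4.

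**Figure D5:**
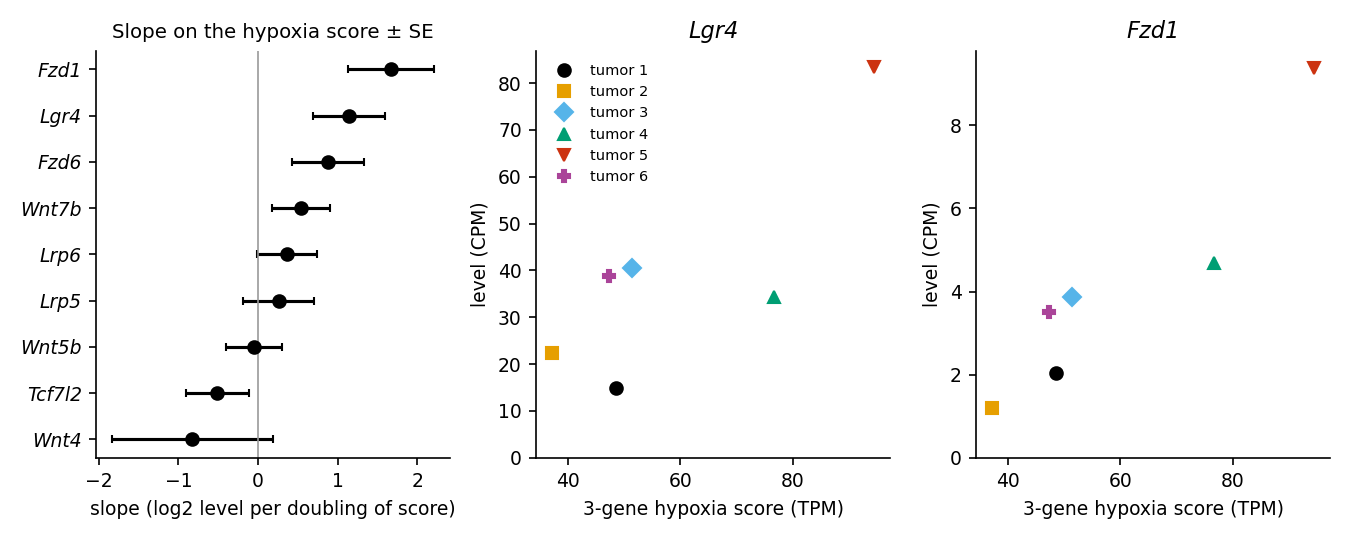
Left, slope of log2 level per doubling of the 3-gene hypoxia score for the 9 genes kept, with the SE as bars. Middle and right, CPM of Lgr4 and Fzd1 against the score in TPM for the 6 tumors, where tumor 5 is the highest on both axes and no slope passed the correction.

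The other slopes were 0.88 (SE 0.45) for Fzd6, 0.54 (SE 0.36) for Wnt7b, 0.36 (SE 0.38) for Lrp6 and 0.26 (SE 0.45) for Lrp5. Wnt5b was at -0.05 (SE 0.36), Tcf7l2 at -0.52 (SE 0.40) and Wnt4 at -0.82 (SE 1.01). The signs of the last 3 changed when single tumors were left out. Axin2, outside the filter, had a slope of 4.64 (SE 1.63, edgeR quasi-likelihood test without a filter, adjusted p = 0.763), fitted to 47 counts of which 40 came from tumor 4.

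The Wnt genes as a whole were described in the same way, from 9 lists with 96 genes. Of these, 57 passed the filter, 38 had a slope above 0 and 19 below, with a median of 0.30, beside 5657 above and 6431 below among all genes and a median of -0.04. In the Frizzled list 8 of 9 slopes were above 0, with a median of 0.71. Among the co-receptors 5 of 5 were above 0 (median 0.36), among the antagonist list 4 of 5 (median 0.50), and among feedback and target genes 7 of 8 (median 0.60). The other lists were more evenly split or lower. They were the cytoplasmic relay with 7 of 12 (median 0.02), the R-spondin arm with 2 of 4 (median 0.08) and the ligands with 2 of 4 (median -0.01). Ligand secretion had 2 of 4 (median -0.22) and nuclear partners 3 of 9 (median -0.13). Some genes are in 2 lists. No gene of these lists was called. The sample identifiers start with QAF for 4 tumors and QSD for the other 2, both too few for a relation within a prefix. With the prefix as a term, the slopes were 1.68 for Fzd1, 1.31 for Lgr4, 0.85 for Fzd6, 0.30 for Wnt7b and 0.27 for Lrp5. That of Lrp6 went from 0.36 to 0.09. Tcf7l2 was then at -0.22, Wnt5b at -0.28 and Wnt4 at -0.46, and no gene was called.

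Presence was counted over the same lists. Of the 96, 56 had at least 3 counts in every tumor, 16 in some and 24 in none, of which 12 had no count at all. The share of all genes present in every tumor is not given here, so these counts are not read against other genes. All 12 genes of the cytoplasmic relay and 5 of 6 co-receptors were present in every tumor, against 5 of 14 genes of the antagonist list. Sfrp1, an antagonist that binds Wnt proteins, was the highest of these by median, at 56.6 to 117 CPM, and Wif1 varied from 5.58 CPM in tumor 3 to 54.6 CPM in tumor 1. Dkk1 and Notum, antagonists that are themselves pathway targets, had no count in any tumor. Dkk3 had 104 counts in tumor 5 and at most 26 in any other.

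Genes with the most similar pattern over the 6 tumors were listed for each member among 8872 or 8873 candidates whose mean reached 10 CPM, by Pearson's r of log2(TMM-scaled CPM + 1). For Axin2 these were Zfx (0.991), Txnrd1 (0.961) and Cdkl2 (0.957), and 4 genes reached 0.95. For Lgr4 they were Apaf1 (0.987), Pla2g4a (0.987) and Stk26 (0.986), and 52 genes reached 0.95. Fzd1 was closest to Hprt (0.993), Fzd6 to Spin1 (0.995), Lrp6 to Pam (0.995) and Lrp5 to Irx5 (0.997). Tcf7l2 was closest to Rnf20 (0.987), Wnt5b to Rbm8a (0.985), Wnt7b to Bri3bp (0.992) and Wnt4 to Rbm12 (0.986). With 6 points that share libraries and depth, such values are a description only.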

How the data were processed

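RNA of CD45-EPCAM+ cells from 6 tumors was made into QuantSeq 3′ FWD libraries. Reads were trimmed with bbduk, aligned to GRCm38/mm10 with STAR 2.5 and counted per gene with HTSeq (Bluebee), and the values the authors deposited are raw counts. Whether molecular identifiers were collapsed, the strand setting and the annotation release are not given in the sources used here. The 5 lines per file that name no gene (16.1 to 41.4% of reads) were left out. From the deposited counts, CPM, and TPM with union exon lengths of GENCODE M21 (47224 of 47643 identifiers matched), were computed. Genes were filtered by the rule of edgeR's filterByExpr (minimum count 10, total 15), written out with the group size set to 3, since all tumors are 1 group. The slope on log2 of the score was fitted with edgeR 4.0.16 (TMM, Benjamini-Hochberg over 12088 genes), with DESeq2 1.42.0 as an alternative. On simulated data edgeR recovered 30.5% of 197 genes with a slope of 2, with 10.4% of 67 calls false, among 11942 genes, and DESeq2 62.4%, with 23.6% of 161 calls false. The members, gene lists and tests were chosen with earlier results of these data known. Named genes were the members, the score genes, the listed pathway and marker genes, and for each member the 3 genes most like it. The labels give each sample an identifier of its own without saying that each is a separate mouse, so p-values measure the spread between these samples. Alternatives were other scalings, filters, scores, length definitions and leaving out each tumor.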

Additional observations from a re-analysis of the deposited data

Results flagged for a closer look

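Among the 10 genes, 2 had a tumor set apart from the other 5 by a gap larger than Dixon's 95% critical value for 6 values. For Axin2 the gap was 0.886, from tumor 4 at 8.51 CPM (40 counts) against at most 0.970 CPM (4 counts) in the others. For Lgr4 it was 0.627, from tumor 5 at 83.5 CPM against at most 40.5 CPM in the others. Chance alone sets about 1 in 20 such groups apart, and 16.3% of the 12088 genes kept in these libraries passed the same value. Axin2 is not among the genes kept, and no such share is given for genes with as few counts.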

How the results depend on the processing

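The gap of Axin2 stayed past the critical value under all 3 other scales, whereas that of Lgr4 fell to 0.581 with TMM, 0.581 with DESeq2 size factors and 0.426 on log2(CPM + 1), leaving 1 gene with a tumor apart in place of 2. For the slope on the hypoxia score, edgeR called 0 genes, DESeq2 18 and edgeR without a filter on low counts 10, and leaving out single tumors gave 0 to 2, the 2 without tumor 1; the causes were not tested. Slopes that changed sign were those of Wnt5b, 0.016 with library totals alone and -0.69 to 0.12 with a tumor left out (above 0 without tumor 2, 4 or 6), Wnt4, -1.77 to 0.42 (above 0 without tumor 5), and Tcf7l2, -0.71 to 0.030 (above 0 without tumor 2). The other 111 slopes under alternatives kept their sign. The number of neighbouring pairs that differed in the order of levels was 3. It was also 3 in CPM, but there Lrp6 lay above Wnt5b beyond the spread, the reverse of TPM. It was 2 with the length of the longest transcript (Wnt5b and Lrp6 no longer differed), and 3 to 5 with a tumor left out, the 5 without tumor 4. The median of Wnt5b rose from 40.6 to 49.7 CPM with a total that leaves out the 10 most abundant genes, and 79 other medians moved by less than the SD between tumors. The counts of pathway genes present, of genes with a 2-fold range, of members highest in tumor 5 and of feedback genes highest in tumor 4 stayed within 1.5 times under every alternative; the last 2 sets of alternatives were chosen after seeing the data. Genes under about 10 counts, among them Axin2 in 5 tumors, Wnt4 in 2 and Sp5 in all 6, are limited by depth. No paired analysis was possible because all samples belong to 1 group.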
